A study of Mus musculus with 27 samples.

Results

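Donor monocytes recovered from the small intestine 5 days after transfer were compared between recipients whose gut had been surgically manipulated (4 mice) and recipients without surgery (4 mice). These 8 samples were all those of day 5 among the 27 samples of days 1, 2 and 5 in the table, and all 57 genes with values were analysed, out of 67 on the panel. The remaining 10 panel genes were blank in every sample. Donors were C57BL/6 wild-type (WT) mice carrying CD45.2, from which CD11b+Ly6C+ bone marrow monocytes were purified and injected intravenously. Every recipient was a C57BL/6 CCR2-/- mouse carrying CD45.1, so both groups lacked the chemokine receptor by which endogenous monocytes leave the bone marrow, and only the donor cells carried it. Manipulated recipients were anaesthetised with ketamine and xylazine 1 day before the transfer. The abdomen was opened, the small bowel was laid outside and flattened between forceps, and Novalgin was added to the drinking water over the first days. Non-manipulated recipients had no surgical procedure of any kind, so the comparison covers the whole procedure and not the handling of the bowel alone. The authors reported that sham surgery, in which the abdomen was opened but the bowel was not handled, caused no gut inflammation. No sham-operated recipients were among these samples. From each recipient, 100 donor cells of the CD11b+CD64+ gate with low or intermediate CD11c were sorted, reverse-transcribed, pre-amplified for 16 cycles and read on the NanoString nCounter, an instrument that counts barcoded probes and does not sequence. Each sample was a separate mouse, pooled over more than 1 experiment, and which mouse came from which experiment is not labelled. As each sample was a pool of cells, fewer cells of a type and less RNA per cell cannot be told apart in any result.

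Ly6C+ monocytes that enter the gut wall lose monocyte genes such as Ly6c1 and Ccr2 over days and gain the class II molecules, CX3CR1 and scavenger receptors of resident macrophages. In the undisturbed intestine these macrophages are known for taking up bacteria without strong release of inflammatory mediators, and for making IL-10. During inflammation newly arrived monocytes release cytokines and chemokines, and cells of the monocyte lineage exposed to IL-4 or IL-13, or involved in wound repair, can express the alternative activation genes Arg1, Retnla and Chil3.

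At day 5, 14 of the 57 genes differed between manipulated and non-manipulated recipients (24.6% of the genes tested). Of these, 10 were higher in manipulated recipients (17.5%) and 4 were lower (7.02%), against 12 and 2 without Rpl19 in the scaling and 11 and 1 with the scaling factor of the deposited normalized values. Arginase, IL-1α, the chemokines CXCL1, CCL2 and CCL8, the lipid receptor TREM2 and the lipopolysaccharide co-receptor CD14 were among the higher transcripts. The receptor CCR2, the cytokine TGF-β1 and the interferon-induced chemokine CXCL9 were among the lower ones. A gene was called where the adjusted p of an edgeR quasi-likelihood test was below 0.05, and levels are scaled counts, in which every count was divided by its lane's housekeeping level. The groups did not overlap for 9 genes (15.8%), 7 of which were called (Arg1, Il1a, Cxcl1, Trem2, Cd14, Retnla and Ccr2). For 11 of the 14 called genes, the 4 manipulated mice were either all above or all below the mean of the non-manipulated mice. The genes were called on these same mice, so that count describes the calls and is no separate support for them. Uncalled genes such as Il23a, Il10 and H2-Ab1 met it too, and Ly6c1 met it because 1 non-manipulated mouse raised the mean. When each of the 8 mice was left out in turn, 9 of the 14 genes were called in every one of the 8 fits. When day 5 was fitted without the other days, 7 genes were called. Il1a, Cxcl1, Arg1, Trem2 and Ccr2 kept their calls, Il23a and H2-Ab1 gained one (adjusted p = 0.0484 each), and Ccl2 (0.0922), Ccl8 (0.0938), Cd14, Chil3, Retnla and Ly6c1 (0.0636 each), Cxcl9 (0.0938) and Tgfb1 (0.154) were among those that lost theirs, the values being adjusted p.

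**Figure D1:**
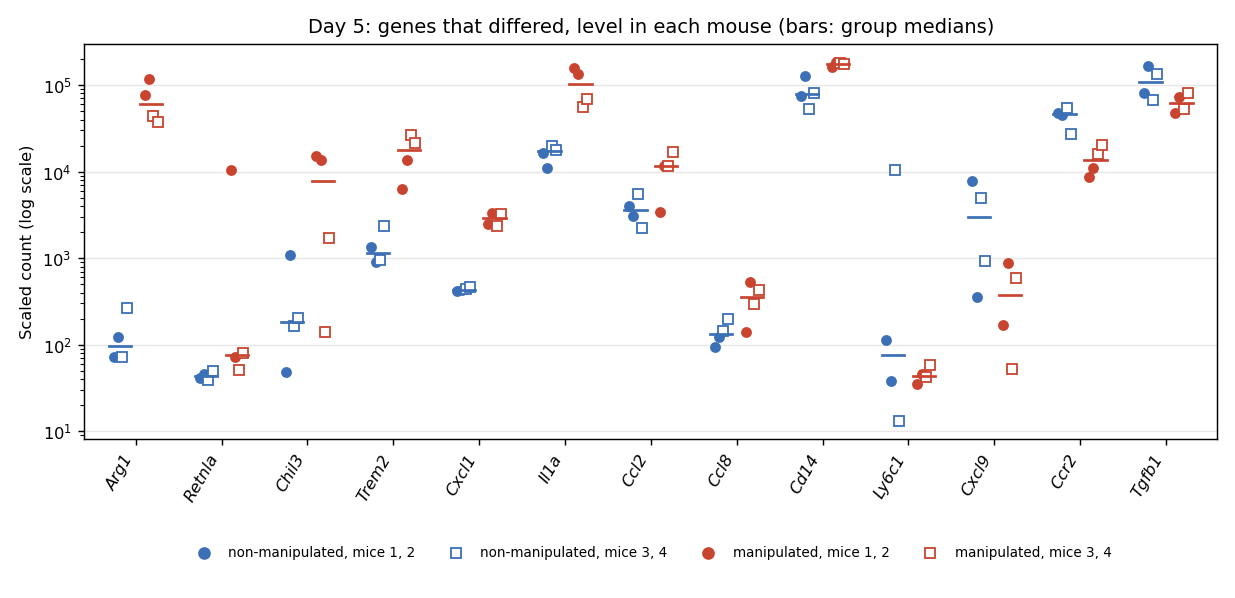
Scaled counts (log axis) of 13 of the 14 genes that differed at day 5, 1 symbol per mouse, with a bar at each group's median. Blue marks non-manipulated and red manipulated recipients, filled circles mark mice 1 and 2 and open squares mice 3 and 4. For Cxcl1 all 4 manipulated mice lie between 2375 and 3349 and all 4 non-manipulated mice between 416 and 459, whereas the Retnla and Ly6c1 differences each rest on 1 mouse.

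Promoter sequences of a pair of the higher genes are shown because both hold a match to the consensus of a factor that is known to act on genes of their kind. They are the RefSeq sequences of GRCm38.p6, 150 bases ending just before the annotated start, 5′ to 3′, with the match in capitals. NF-kB carries signals from IL-1 and bacterial products, and STAT6 carries signals from IL-4 and IL-13.
Cxcl1 (chr5:90891095-90891244, + strand): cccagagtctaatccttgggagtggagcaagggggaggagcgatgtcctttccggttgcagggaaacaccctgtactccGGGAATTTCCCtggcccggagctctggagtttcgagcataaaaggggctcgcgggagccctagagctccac
Retnla (chr16:48842459-48842608, + strand): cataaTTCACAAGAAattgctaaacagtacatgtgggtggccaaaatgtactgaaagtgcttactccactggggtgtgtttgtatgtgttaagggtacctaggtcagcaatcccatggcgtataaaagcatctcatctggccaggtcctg
In Cxcl1 the capitals mark an NF-kB consensus match 71 to 61 bases before the start, which matched on both strands. In Retnla they mark a match to TTCNNNNGAA, the consensus of STAT6, 145 to 136 bases before the start. Searching both strands of the 250 bases before each start, 3.9% of 32851 promoters held the NF-kB consensus and 5.85% held TTCNNNNGAA. Among the 10 called genes with a promoter sequence, 1 held the first (Cxcl1) and 1 the second (Retnla). A match describes the sequence only and does not show that a factor bound there.

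The lanes of the 8 mice were deep and differed somewhat between groups. Total counts ranged from 597997 to 889776 in non-manipulated and from 850207 to 1288610 in manipulated recipients (exact permutation test, two-sided p = 0.0571, smallest possible 0.0286). The housekeeping level, a geometric mean of Actb, Gapdh and Rpl19, was 10838 to 26851 and 18255 to 31069 (exact permutation p = 0.2). Between 54 and 57 genes exceeded the lane's background, which was 14.9 to 31.4 counts in non-manipulated and 30.1 to 49.8 in manipulated recipients (exact permutation p = 0.0571). The deposited values of mice 3 and 4 carry a multiplier of 1.333 that mice 1 and 2 lack, and these sets of lanes are compared further down. Actb, Gapdh and Rpl19 set the scale, and the median log2 fold change over all 57 genes was 0.59, with 42 genes above 0 and 15 below. Under the other scalings this median lay between 0.23 and 0.85. A gene's fold change is therefore read against that shift. The sorted cells were checked against markers of other cell types only through Ccr7, a receptor of migrating dendritic cells, the single such marker with values, which was 1384 to 4806 in non-manipulated and 1391 to 11348 in manipulated recipients (log2 fold change 0.59 ± 0.75 SE, adjusted p = 0.571). Flt3 and Zbtb46, also dendritic cell genes on the panel, were among the genes blank in every sample. Markers of neutrophils, eosinophils, lymphocytes, epithelium and stroma were not measured. Macrophage genes were present in every mouse, with Fcgr1, which encodes CD64, at 11700 to 56040. The cells were sorted on CD64, so Fcgr1 is no separate check of what they were.

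Among 5 measured proinflammatory cytokine genes, Il1a rose and the others did not pass the test, beside 10 of all 57 genes that rose (17.5%). Il1a encodes IL-1α, an alarm cytokine that acts through the IL-1 receptor. Its scaled counts in non-manipulated mice 1 to 4 were 16363, 11113, 19867 and 17806, against 157716, 134067, 56343 and 69932 in manipulated mice. The lowest manipulated mouse was above the highest non-manipulated mouse, and the log2 fold change was 2.68 ± 0.44 (SE), a 6.42-fold difference (adjusted p = 0.000134). Il23a, which encodes the p19 chain of IL-23, also separated the groups, with 58.5, 83.2, 152 and 86.6 in non-manipulated and 1439, 189, 252 and 462 in manipulated mice, but its difference of 2.62 ± 1.13 did not pass (adjusted p = 0.0824). All 4 non-manipulated mice were below the lowest manipulated mouse. Tnf (0.62 ± 0.56), Il6 (1.06 ± 0.64) and Il1b (0.16 ± 0.43) overlapped between groups. The 5 cytokine genes had a median log2 fold change of 1.06 beside 0.59 for the whole panel.

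The 4 measured chemokine genes that attract myeloid cells all had positive values, as did 42 of all 57 genes. Of the 4, 3 rose, beside 10 of all 57 genes (17.5%). Cxcl1, a neutrophil attractant acting on CXCR2, was 416, 427, 440 and 459 in non-manipulated mice and 2507, 3349, 2375 and 3274 in manipulated mice. The spread within each group was small next to the gap, and the difference was 2.72 ± 0.48 (adjusted p = 0.000199). Ccl2, a ligand of CCR2, was 4047, 3063, 5445 and 2202 against 3408, 11546, 11524 and 16692. Manipulated mouse 1 lay within the non-manipulated range and the other 3 manipulated mice lay above it (1.55 ± 0.39, adjusted p = 0.00476). Ccl8, which also attracts monocytes, was low throughout, at 93.2, 124, 144 and 199 against 142, 533, 294 and 426, again with manipulated mouse 1 inside the other group's range (1.32 ± 0.34, adjusted p = 0.00476). Under TMM scaling Ccl8 was at 0.93 with an adjusted p of 0.0501. Ccl7, a further CCR2 ligand, was 9979, 792, 5631 and 1301 against 2646, 21150, 26560 and 26728. Mouse 1 of the manipulated group was again the low one, and the difference of 2.12 ± 0.83 did not pass (adjusted p = 0.0602). The list's median was 1.84, and all 4 members were also positive under each of the 5 other scalings.

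The 3 measured ligands of CXCR3, which are induced by interferons and attract T cells, had negative values, as did 15 of all 57 genes. Of the 3, Cxcl9 fell, beside 4 of all 57 genes (7.02%). Cxcl9 was 7700, 357, 5006 and 918 in non-manipulated mice and 171, 887, 52.4 and 588 in manipulated mice. The groups overlapped, since non-manipulated mouse 2 was below a pair of manipulated mice, and the fitted difference was -3.04 ± 1.11 (adjusted p = 0.0452). The Cxcl9 call was kept in 3 of the 8 fits that left out a mouse, with adjusted p up to 0.149. Cxcl10 (-0.84 ± 0.67) and Cxcl11 (-1.53 ± 1.00) did not pass. Cxcl10 was lowest in manipulated mice 3 and 4 (4851 and 29141), while the other 6 mice had 37884 to 131385.

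The alternative activation genes held the largest differences. Of 8 measured members 4 rose, beside 10 of all 57 genes (17.5%), and none fell. The list's median log2 fold change was 2.85 beside 0.59 for all genes. Arg1 encodes arginase 1, which breaks down arginine. It was 71.5, 124, 71.9 and 266 in non-manipulated mice and 77773, 116860, 44068 and 37682 in manipulated mice. The lowest manipulated mouse exceeded the highest non-manipulated mouse by more than 2 orders of magnitude, and the difference was 9.02 ± 1.88 on the log2 scale, or 520-fold (adjusted p = 0.00121). Arg1 counts were above background in all 8 mice. Trem2, a lipid-binding receptor of macrophages, was 1358, 899, 964 and 2340 against 6223, 13798, 26424 and 21579, without overlap (3.61 ± 0.86, 12.2-fold, adjusted p = 0.00435).

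Chil3, which encodes the chitinase-like protein Ym1, and Retnla, which encodes RELMα, were less even between mice. Chil3 was 48.8, 1087, 164 and 201 in non-manipulated mice and 15206, 13788, 140 and 1693 in manipulated mice. Manipulated mouse 3 lay inside the non-manipulated range and the other 3 above it (4.36 ± 1.14, adjusted p = 0.00536). Retnla was 41.2, 45.6, 38.8 and 49.8 in non-manipulated mice, close to background, and 10423, 72.1, 51.5 and 79.4 in manipulated mice. A single manipulated mouse held nearly all of the Retnla signal. The fitted difference of 5.92 ± 1.79 (adjusted p = 0.0167) fell to 0.63 without that mouse (adjusted p = 0.725). Mrc1, which encodes the mannose receptor CD206, was 427, 413, 354 and 284 against 252, 559, 2014 and 3452. Manipulated mice 2, 3 and 4 were above and mouse 1 was below every non-manipulated mouse, and the difference of 2.09 ± 0.83 did not pass (adjusted p = 0.061). Ccl22 (0.28 ± 0.69), Stat6 (0.11 ± 0.31) and Irf4 (-0.63 ± 0.50) did not pass either.

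Of 3 measured genes of the regulatory cytokine pathway, Tgfb1 fell, beside 4 of all 57 genes (7.02%), and Il10 did not pass the test. Tgfb1 encodes the cytokine TGF-β1 and was 81110, 164422, 67809 and 135055 in non-manipulated mice and 47557, 72478, 52630 and 81907 in manipulated mice. The ranges overlapped and the difference was small (-0.82 ± 0.29, 1.76-fold lower, adjusted p = 0.0452). It was called in 3 of the 8 fits with a mouse left out, with adjusted p up to 0.178. Il10 was 15116, 33148, 15150 and 9795 against 22659, 47974, 36532 and 61070, so that 3 of 4 manipulated mice exceeded every non-manipulated mouse (1.20 ± 0.46, adjusted p = 0.0545). Il10ra, the receptor chain that binds IL-10, was at 0.52 ± 0.55.

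Of 7 genes for bacterial recognition and proximal signalling, Cd14 alone passed the test, beside 14 of all 57 genes (24.6%). Positive values were found for 6 of the 7, beside 42 of all 57. Cd14 encodes a co-receptor that hands lipopolysaccharide to TLR4. It was 75644, 126692, 52829 and 81551 in non-manipulated mice and 162527, 184985, 177578 and 176185 in manipulated mice. The manipulated mice lay close together and all above the non-manipulated ones (1.06 ± 0.28, 2.08-fold, adjusted p = 0.0065), and the difference was 0.47 above the median of all genes. Tlr2 (0.97 ± 0.42, adjusted p = 0.0824) was next, and Tlr4 (-0.03 ± 0.46), Traf6 (0.03 ± 0.43), Nod2 (0.23 ± 0.47), Card9 (0.36 ± 0.42) and Trem1 (0.50 ± 0.55) lay below the panel median. None of 6 NF-kB subunits and myeloid transcription factors passed, and their median was 0.55. Cebpb had the largest value of these (1.57 ± 0.64, adjusted p = 0.0699). It was 1724, 1796, 1830 and 927 in non-manipulated mice and 1141, 1891, 6390 and 9176 in manipulated mice, with the high values in manipulated mice 3 and 4 only.

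**Figure D2:**
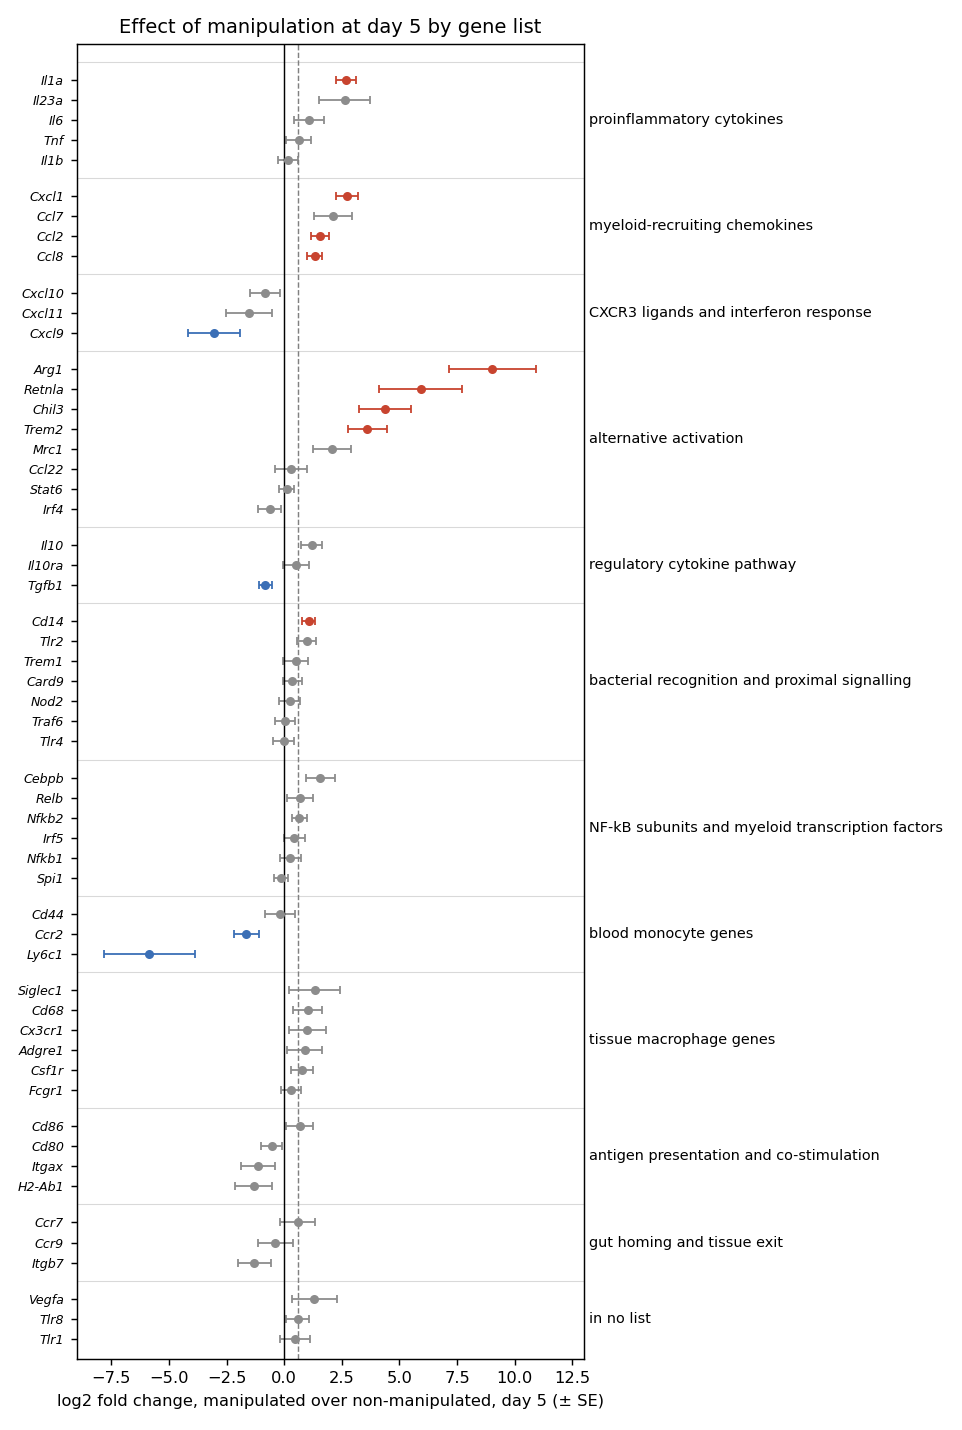
Log2 fold change at day 5 with its standard error for 55 of the 57 genes, grouped by gene list (a gene in more than 1 list is drawn in the first). Red points were higher and blue points lower in manipulated recipients at an adjusted p below 0.05, grey points did not pass, the solid line is at 0 and the dashed line at the median of 0.59. Of the genes drawn, Arg1, Retnla, Chil3 and Trem2 of the alternative activation list lie furthest to the right. Others of that list, Ccl22, Stat6 and Irf4, lie left of the dashed line. The 4 blue points are Ly6c1, Cxcl9, Ccr2 and Tgfb1.

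Of 4 measured genes of blood monocytes, Ccr2 and Ly6c1 fell, and 1 that is not reported here by value rose. Ccr2, the receptor for CCL2 and CCL7, was 47866, 44548, 54222 and 27519 in non-manipulated mice and 8756, 11127, 15852 and 20229 in manipulated mice. The groups did not overlap, and Ccr2 was 3.11-fold lower in manipulated recipients (-1.64 ± 0.53, adjusted p = 0.0264). With the scaling factor of the deposited normalized values the difference was -1.29 and did not pass (adjusted p = 0.202). Ly6c1, which encodes a Ly6C antigen, was 113, 37.6, 10359 and 13 against 35.1, 45.7, 42.1 and 57.6. Apart from non-manipulated mouse 3, all mice were near background, with counts above it in 2 of 4 non-manipulated mice and 1 of 4 manipulated mice. The fitted difference of -5.86 ± 1.97 (adjusted p = 0.0307) was -0.29 without non-manipulated mouse 3 (adjusted p = 0.912). Cd44, an adhesion receptor for hyaluronan, was at -0.18 ± 0.65.

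None of the 7 measured tissue macrophage genes passed the test over all 8 mice, beside 14 of all 57 genes (24.6%) that did. All 7 had positive values, as did 42 of all 57 genes, and the median of the 7 was 1.00 beside 0.59. Under TMM and DESeq2 scaling 6 of the 7 were positive, beside 37 and 35 of all 57 genes. The values of Cx3cr1, the fractalkine receptor, show the pattern. It was 842, 618, 1079 and 444 in non-manipulated mice and 108, 656, 1854 and 3365 in manipulated mice, so manipulated mouse 1 was the lowest and mice 3 and 4 the highest of all 8 (1.00 ± 0.81, adjusted p = 0.387). Csf1r, the receptor for the macrophage growth factor CSF1, had the same layout, with 30074, 20773, 25716 and 17990 against 9424, 25874, 54062 and 73132 (0.78 ± 0.49, adjusted p = 0.271). Adgre1, which encodes F4/80, was 3052, 2572, 2546 and 1858 against 725, 2248, 6164 and 9352. Again manipulated mouse 1 was lowest and mouse 4 highest. Siglec1, which encodes the sialic acid receptor CD169, was 6233 in manipulated mouse 1 and 16381 to 23496 in the other 3 manipulated mice, beside 3520 to 9494 in non-manipulated mice (adjusted p = 0.387).

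The antigen presentation genes showed 0 calls in 4, beside 14 of all 57 genes (24.6%). Negative values were found for 3 of the 4, beside 15 of all 57 genes. H2-Ab1, a chain of MHC class II, was 206550, 428733, 369203 and 570147 in non-manipulated mice and 170899, 172391, 109924 and 181031 in manipulated mice. Every manipulated mouse was below every non-manipulated mouse, but the difference of -1.31 ± 0.80 did not pass (adjusted p = 0.27). Itgax, which encodes CD11c, was 5226 to 5912 in all non-manipulated mice and 2542, 464, 1487 and 5659 in manipulated mice (-1.13 ± 0.75). Cd80 (-0.55 ± 0.45) and Cd86 (0.67 ± 0.59), both co-stimulatory ligands of T cells, did not pass.

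**Figure D3:**
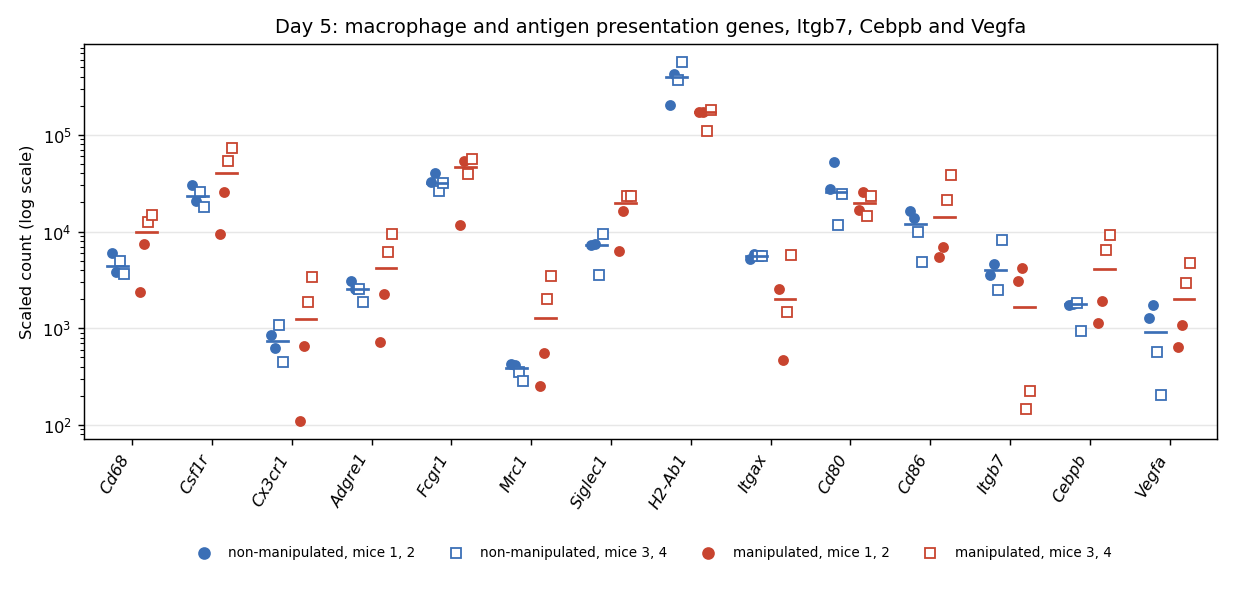
Scaled counts (log axis) of 7 tissue macrophage genes, 4 antigen presentation genes, Itgb7, Cebpb and Vegfa at day 5, 1 symbol per mouse with a bar at each group's median and the colours and symbols of the plot of called genes. Manipulated mice 3 and 4 (open red squares) lie above mice 1 and 2 (filled red circles) for most macrophage genes, as for Cx3cr1 at 1854 and 3365 against 108 and 656, and below them for Itgb7.

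The difference between the sets of lanes was tested directly, as the effect of manipulation in mice 3 and 4 minus that in mice 1 and 2, in a test chosen after seeing the data. It passed for 3 of 57 genes (5.26%), Itgb7 and Cd86 among them. Itgb7, which encodes the gut-homing integrin β7, was 3514, 4575, 2497 and 8271 in non-manipulated mice and 3069, 4234, 145 and 224 in manipulated mice. Only manipulated mice 3 and 4 were low, so the effect was -4.87 in mice 3 and 4 and -0.15 in mice 1 and 2 (difference -4.72 ± 1.02, adjusted p = 0.00904). Cd86 was 16271, 13929, 9931 and 4798 against 5402, 6981, 21062 and 38231, which gave a difference of 3.30 ± 0.94 (adjusted p = 0.0418). These calls were not kept when some single mice were left out, and 0 genes passed without non-manipulated mouse 4 or without manipulated mouse 3.

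Fitted with mice 3 and 4 alone, 24 genes were called (42.1%, 21 higher and 3 lower), and with the other mice, 8 genes were called (14%, 6 higher and 2 lower). At day 5 those other mice were mice 1 and 2, but that fit also drew its spread from lanes of mouse 5 at days 1 and 2. The fits held different numbers of lanes, so their numbers of calls are not like for like. Arg1, Ccr2, Cxcl1 and Il1a were called in both. The effects were 7.92 and 9.97 for Arg1, 2.65 and 2.80 for Cxcl1, 1.74 and 3.41 for Il1a, and -1.18 and -2.22 for Ccr2, in mice 3 and 4 and in mice 1 and 2 respectively. Over the panel 29 genes had opposite signs in the 2 sets. The tissue macrophage genes had a median of 1.78 in mice 3 and 4, where 6 of 7 were called, and -0.16 in mice 1 and 2, where 0 were called. The difference between sets was positive for all 7, beside 35 of all 57 genes, but passed the test for 0 of the 7. Over all 57 genes the medians were 0.72 and -0.13. Vegfa, the vascular growth factor, had an effect of 3.32 in mice 3 and 4 and -0.82 in mice 1 and 2 (adjusted p of the difference = 0.157). Whether a set of lanes was 1 experiment is not stated, so experiment and set cannot be told apart.

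**Figure D4:**
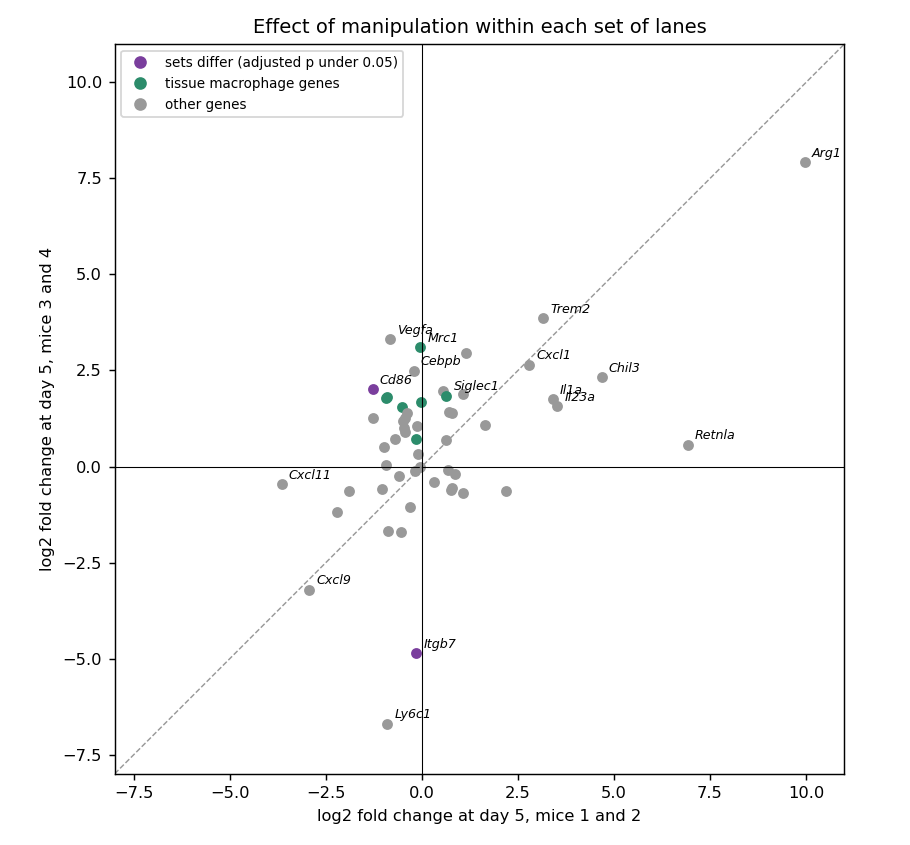
Log2 fold change of manipulated over non-manipulated recipients at day 5 in mice 1 and 2 (horizontal) and in mice 3 and 4 (vertical), 1 point per gene, with the dashed line where both are equal. The plot shows 55 of the 57 genes. Purple points are Itgb7 and Cd86, whose effects differed between sets, green points the tissue macrophage genes and grey points the rest. Arg1 lies far along the diagonal at 9.97 and 7.92 and Itgb7 lies at -0.15 and -4.87.

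The effect of manipulation at day 5 was set against that at day 1, measured in other mice (5 in each group). It differed for 11 of 57 genes (19.3%), 7 with a more positive and 4 with a more negative effect at day 5. This split depended on the scaling, with 7 more positive and 8 more negative under TMM, 7 and 11 under DESeq2, and 3 and 3 with the authors' factor. Trem2 had an effect of -0.30 at day 1, 2.26 at day 2 and 3.61 at day 5 (day 5 minus day 1, 3.91, adjusted p = 0.0112). In manipulated recipients its median was 1626 at day 1, 6532 at day 2 and 17689 at day 5, whereas in non-manipulated recipients it was 1991, 1538 and 1161. Cx3cr1 moved from an effect of -3.70 at day 1 to 1.00 at day 5 (difference 4.70, adjusted p = 0.00458). Its median was 128 at day 1 and 1255 at day 5 in manipulated recipients, and 1885 and 730 in non-manipulated recipients.

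In the opposite sense, Ccl7 and Il6 had larger positive effects early. Ccl7 had an effect of 7.02 at day 1 and 2.12 at day 5 (difference -4.90, adjusted p = 0.00396), with medians of 19254 at day 1 and 23855 at day 5 in manipulated and of 80.9 and 3466 in non-manipulated recipients. Il6, the gene of the cytokine IL-6, had an effect of 5.12 at day 1 and 1.06 at day 5 (difference -4.06, adjusted p = 0.00396), and here the manipulated median was 1293 at day 1 and 67.5 at day 5. Cd80 went from 1.71 to -0.55 (difference -2.26, adjusted p = 0.0112). The calls for Ccl7, Cd80, Cx3cr1, Il6, Retnla and Trem2 were kept in all 18 fits that left out 1 mouse of either day, and those for Ly6c1, Chil3 and Csf1r in 6, 5 and 5.

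For Chil3 the medians at day 5 were below those of day 1 in both groups, a change over time that was not tested here. The Chil3 median was 51650 at day 1 and 183 at day 5 in non-manipulated and 62302 and 7741 in manipulated recipients. The Retnla difference between days (10.28, adjusted p = 0.00396) involved 1 non-manipulated mouse of day 1 at 6007 and manipulated mouse 1 of day 5 at 10423. Leaving out a mouse gave 4.99 to 10.69 for it.

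**Figure D5:**
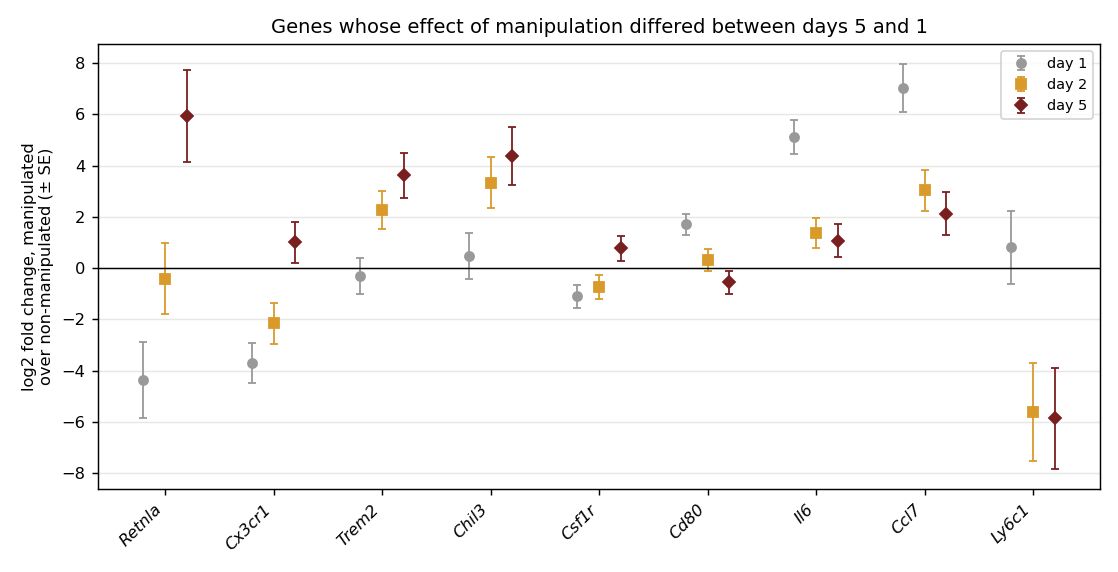
Log2 fold change of manipulated over non-manipulated recipients with its standard error at day 1 (grey circles), day 2 (orange squares) and day 5 (dark red diamonds) for 9 of the 11 genes whose effect differed between days 5 and 1. Trem2 goes from -0.30 through 2.26 to 3.61 and Ccl7 from 7.02 through 3.03 to 2.12.

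No gene passed for day 5 minus day 2 (0% of 57, lowest adjusted p = 0.192), where edgeR gave 7 genes at an unadjusted p below 0.05 and limma and DESeq2 also called 0. Il1a, Cxcl1 and Ccl2 were higher and Ccr2 and Cxcl9 lower, each past the threshold, at all 3 days. Ccl8 was called at day 5 and at neither of the earlier days. The Ccl8 effect was 0.13 at day 1 and 1.32 at day 5, a difference of 1.19 that did not pass (adjusted p = 0.0603). Arg1 had effects of 6.12, 3.37 and 9.02 at days 1, 2 and 5, and day 5 did not differ from day 1 past the threshold (2.90, adjusted p = 0.285). The Arg1 effect at day 2 did not pass by edgeR's test (adjusted p = 0.0512). Arg1 in manipulated recipients had medians of 13417, 139366 and 60921 at days 1, 2 and 5, and in non-manipulated recipients of 315, 596 and 97.7. The non-manipulated mice of day 2 were uneven, with Arg1 at 30600 in mouse 2 and 33769 in mouse 3. The other non-manipulated mice of that day had at most 596.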

How the data were processed

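Groups came from sample titles and the labelled day. The authors deposited raw counts and a score normalized by them to housekeeping genes. The deposited lanes of mice 1, 2 and 5 held whole-number counts, and those of manipulated day 1 mouse 5, all even, were divided by 2. In the 12 lanes of mice 3 and 4 the values deposited by the authors took the unit of expected counts, since all were whole multiples of 1.333 within 0.001, and were divided by it. The reason for the multipliers was not given. The score, 1 factor per sample (range at most 0.0622%), served as an alternative scaling. Scaled counts are counts divided by the geometric mean of Actb, Gapdh and Rpl19 (3 of 5 housekeeping genes with values) times its mean over all samples. Background was the mean plus 2 SD of 5 negative-control probes. Counts have no molecular identifiers and followed pre-amplification.

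Under R 4.3.3, the two-sided quasi-likelihood test of edgeR 4.0.16 was run on all 27 samples at once, with 6 group means, the housekeeping geometric mean as library size, a common coefficient of variation of 0.685 and 21 residual degrees of freedom. Benjamini-Hochberg adjustment covered all 57 genes, at a threshold of 0.05. The comparison of sets of lanes used a mean per group and set (15 residual degrees of freedom). Exact permutation tests used scipy 1.17.1. Alternatives were other scalings, DESeq2 1.42.0, limma 3.58.1 with pseudocounts of 1 and 20, a filter (above background in at least 4 day 5 samples), subtraction of negative controls, fewer samples, blocks and omission of each mouse. Values in each mouse are given for every called gene and every gene whose groups did not overlap, others were picked after their values were seen, and the rest is given by list. A few panel genes entered every fit and count but are not reported here by value. Members and lists were chosen with earlier results of these data known. Of 72 names, 69 were matched to current symbols by transcript and 3 by symbol, Adgre1 being listed as Emr1.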

Additional observations from a re-analysis of the deposited data

Results flagged for a closer look

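In groups of 4 mice, the lowest or highest mouse stood far from the others in 4 of 120 combinations at day 5, where chance gives about 1 in 20. A combination was a gene or a lane measure in a group. Cebpb was 927 in non-manipulated mouse 4 and 1724 to 1830 in the others. Ccl7 was 2646 in manipulated mouse 1 and 21150 to 26728 in the others. H2-Ab1 was 109924 in manipulated mouse 3 and 170899 to 181031 in the others. Retnla was 10423 in manipulated mouse 1 and 51.5 to 79.4 in the others.

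The effect of manipulation differed between days 5 and 1 by edgeR's test for 11 genes, 9 of which follow. On the log2 scale, day 5 minus day 1, the difference was 10.28 for Retnla, 4.70 for Cx3cr1, 3.91 for Trem2, 3.89 for Chil3 and 1.88 for Csf1r. It was -2.26 for Cd80, -4.06 for Il6, -4.90 for Ccl7 and -6.67 for Ly6c1.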

How the results depend on the processing

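Of the 14 calls at day 5, the number of genes was 10 to 15 under every alternative that kept all 8 mice and the shared spread, and the higher and lower counts (10 and 4) moved as follows. Lower genes numbered 2 without Rpl19 among the housekeeping genes, 1 with the authors' factor and 2 with limma at either pseudocount. Fitting day 5 alone gave 7 calls (5 higher, 2 lower). Mice 3 and 4 alone gave 24 (21 higher) and the other mice 8 (6 higher, 2 lower). Leaving out a mouse gave 11 to 15 calls, 10 to 13 of them higher and 0 to 3 lower, with 0 lower without manipulated mouse 1, and 1 without manipulated mouse 2 or 3 or non-manipulated mouse 3. Mouse numbers did not pair the samples (correlations of same-numbered deviations -0.26, 0.07, 0.13 and -0.32), and with the number as a replicate block 10 genes were called, 9 higher and 1 lower, without Cxcl9, Ly6c1, Retnla and Tgfb1. The 11 differences between days 5 and 1 became 6 with the authors' factor, 18 with DESeq2 and 7 with limma at either pseudocount. The 3 differences between sets of lanes became 5 with DESeq2 and 0 with day 5 alone, and 0 to 3 with a mouse left out, at 0 without non-manipulated mouse 4 or manipulated mouse 3. DESeq2 gave no adjusted p for Retnla. The cause of these changes was not tested. With 4 mice a group and 100 cells a mouse, genes near background (Retnla, Ly6c1, Il6) and genes whose mice differed widely carry the least certain values.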
